A study of Homo sapiens with 3 samples.

Results

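The unfolded protein response and the ATF4 programme were examined through 56 genes that were listed by name, of 19775 genes represented on the arrays. They comprised 32 genes of the ATF4 and amino acid arm, 18 of the ER chaperone arm and 6 sensors and signalling genes. These members and the wider lists further below were chosen with earlier results of these data known. Their counts and directions are therefore descriptive, and the shares over all genes beside them are not a neutral test. The RNA came from a cisplatin-resistant subline (MHCC97L/CisR, here CisR, sample name C8), a doxorubicin-resistant subline (MHCC97L/DoxR, here DoxR, sample name D5) and the parental line MHCC97Low from which both were derived. MHCC97Low is a human hepatocellular carcinoma line of low metastatic potential, cisplatin crosslinks DNA, and doxorubicin traps topoisomerase II on DNA. All 3 lines were grown in DMEM with serum and received no treatment before RNA extraction, so none of the samples carried acute drug exposure as far as the labels say. Each resistant group is 1 subline measured on 1 human U133 Plus 2.0 array from Affymetrix, and drug doses, selection times and clonality are not given in the sources used here. There were therefore no replicates and no test, and every difference below is a difference between 2 arrays. In RNA from bulk cultures, a shift in every cell and a shift in some of the cells cannot be told apart.

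When unfolded proteins build up in the endoplasmic reticulum (ER), the sensors PERK (EIF2AK3), IRE1 (ERN1) and ATF6 signal to the nucleus. ATF6 and the XBP1 factor made through IRE1 drive chaperone and degradation genes, whereas PERK phosphorylates eIF2alpha, which slows protein synthesis while raising translation of ATF4. ATF4 is also raised by GCN2 (EIF2AK4) during amino acid shortage, and it drives genes for amino acid synthesis and uptake, tRNA charging and stress feedback, among them the transcription factor CHOP (DDIT3). Hepatocytes are secretory cells and depend heavily on ER folding capacity.

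The arms differ in the DNA elements near their gene starts, and the stretches below are shown because they carry those elements. ATF4 binds with C/EBP proteins to an element searched here as TGATGNAAN, and the ER stress response elements bound by ATF6 with NF-Y were searched as CCAAT and CCACG with any 9 bases between them and, in the second form, as ATTGG and CCACG with any 1 base between them. Each motif was searched on both strands, from 250 bases before to 50 after every listed start, in the RefSeq promoter table of GRCh38.p14, where 51 of the 56 members matched. No letters of one matched site overlapped another motif in the stretches printed, which run 5′ to 3′ on the gene's strand with the matched letters in capitals.
ASNS: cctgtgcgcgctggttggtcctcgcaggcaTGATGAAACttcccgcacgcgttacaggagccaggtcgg
CHAC1: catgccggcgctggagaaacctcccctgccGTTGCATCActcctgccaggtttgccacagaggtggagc
ATF3: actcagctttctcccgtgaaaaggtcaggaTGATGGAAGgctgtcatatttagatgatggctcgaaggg
HSPA5: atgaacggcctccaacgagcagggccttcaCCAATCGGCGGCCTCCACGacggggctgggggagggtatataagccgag
CALR: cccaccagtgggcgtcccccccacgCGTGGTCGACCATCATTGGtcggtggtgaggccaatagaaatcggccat
PDIA6: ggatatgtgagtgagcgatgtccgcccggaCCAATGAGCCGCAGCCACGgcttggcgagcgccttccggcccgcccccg
SDF2L1: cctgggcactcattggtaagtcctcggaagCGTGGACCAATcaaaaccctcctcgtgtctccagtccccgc
HERPUD1: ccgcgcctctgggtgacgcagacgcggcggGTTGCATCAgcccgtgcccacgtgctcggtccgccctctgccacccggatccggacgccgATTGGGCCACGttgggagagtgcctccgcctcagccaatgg

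The stretches lie at chr7:97872438-97872506 on the minus strand for ASNS, chr15:40953231-40953299 on the plus strand for CHAC1 and chr1:212565186-212565254 on the plus strand for ATF3. Those of the chaperone arm lie at chr9:125241361-125241439, minus, for HSPA5, chr19:12938359-12938432, plus, for CALR and chr2:10812823-10812901, minus, for PDIA6. SDF2L1 is at chr22:21642084-21642154 and HERPUD1 at chr16:56931935-56932065, both on the plus strand. All are from GRCh38.p14 and lie upstream of a listed gene start; in ASNS the match covers bases -68 to -60 and in HSPA5 bases -66 to -48, counted from the start.

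The ATF4 motif was found for 10 of 28 genes of the ATF4 and amino acid arm (35.7%), 1 of 17 of the ER chaperone arm (5.88%), 1 of the 6 sensors (CREB3L2) and 4.45% of all 27305 genes in the table. Both forms of the ER stress motif were found in the chaperone arm, in 6 (35.3%) and 3 (17.6%) of 17 genes, and in none of the 28 ATF4 arm genes, and the gene for the factor XBP1 held the first form. Their shares over all genes in the table were 0.0916% and 0.0696%. Over its 15843 protein-coding genes the shares were 3.60% for the ATF4 motif and 0.133% and 0.0947% for the forms of the ER stress motif. HERPUD1, an ER membrane protein of the degradation machinery, held both an ATF4 motif and the second ER stress motif. HYOU1, an ER chaperone of the Hsp70 family, held the second ER stress motif at -185 and again at -79. These matches describe letters in a window, and absence of a match says nothing of binding elsewhere. The arms were listed as genes of these pathways, so the shares describe the lists and test nothing.

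The arrays were similar in overall signal. Medians over all probe sets were 79.2 in the cisplatin-resistant, 73.3 in DoxR and 78.5 in parental cells, and 10 housekeeping genes had median log2 differences from parental of -0.04 in CisR and -0.01 in DoxR cells, with ranges of -0.31 to 0.29 in CisR and -0.45 to 0.99 in DoxR cells. The upper end was GUSB on chromosome 7, at 5408 in DoxR and 2724 in parental cells. Hepatocyte markers identified the lineage only in part, with 10, 9 and 11 of 14 above the floor of 76.9 signal units in CisR, DoxR and parental cells, and summed signals of 3359 in CisR, 8830 in DoxR and 17051 in parental cells. Their signal thus moved with the lines, and its part in the results below was not tested. Fibroblast markers had 4 of 8 above the floor in CisR, 2 in DoxR and 2 in parental cells, with summed signals of 3436 in CisR, 1552 in DoxR and 815 in parental cells. Albumin (ALB) was at 3.17, under the floor, in CisR, at 3115 in DoxR and at 1545 in parental cells. Most of the hepatocyte list went the other way in DoxR cells. There 10 of 12 compared markers were below parental and 2 above, against 49.6% and 50.4% of all genes compared. The median log2 difference of these markers in DoxR cells was -0.62. In CisR cells 11 of 12 compared hepatocyte markers were below parental, against 47.9% of all genes, with a median of -1.93. Leukocyte markers had 1 of 6 above the floor in CisR, 1 in DoxR and 0 in parental cells, and endothelial markers 2 of 8 in each line.

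Of the 56 members, 54 had a probe set of their own and 53 could be compared, because each lay above the floor on at least 1 array of each pair. MARS1, the methionyl-tRNA synthetase, and SYVN1, an ER ubiquitin ligase, share their probe sets with a microRNA gene in the annotation and are named for no value here. MTHFD2, the mitochondrial folate dehydrogenase, lay under the floor in both of its probe sets on all 3 arrays, and whether these probe sets measure the gene was not tested, so no level is drawn from them. HSP90B1 is represented by its 2 probe sets that carry no second gene. A gene was called at a 2-fold difference, and a 1.5-fold difference served as a second, looser rule. Signals of different probe sets are not on a common scale, so levels are compared between arrays and not between genes.

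The first comparison asked how the programme differed between the doxorubicin-resistant subline and its parent. The ATF4 and amino acid arm was higher in the resistant array, and the ER chaperone arm lay around the parental level. All 30 compared genes of the ATF4 arm had a higher signal than in the parental array, against 50.4% of all genes compared. Their median log2 difference was 0.54, with a range of 0.01 to 1.54. The 17 compared genes of the chaperone arm had a median of -0.04 and a range of -0.43 to 0.51, and the median over all 12599 genes compared was 0.00. Higher genes were the transcription factors ATF3 and DDIT3, the stress effectors DDIT4 and CHAC1, the enzymes ASNS and CTH, the hormone STC2 and the receptor VLDLR.

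Those 8 members, all of the ATF4 arm, were the members at least 2-fold higher, against 2.99% of all genes compared. None was at least 2-fold lower, against 2.75% of all genes. At 1.5-fold, 14 members were higher and 0 lower, against 9.1% and 8.62% of all genes. Of the 14, 13 belonged to the ATF4 arm and the other was the sensor ERN1. Without probe sets marked _s_ or _x_, which may match several transcripts, 37 members could be compared and 4 were at least 2-fold higher, against 2.93% of all genes compared in that setting.

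**Figure D1:**
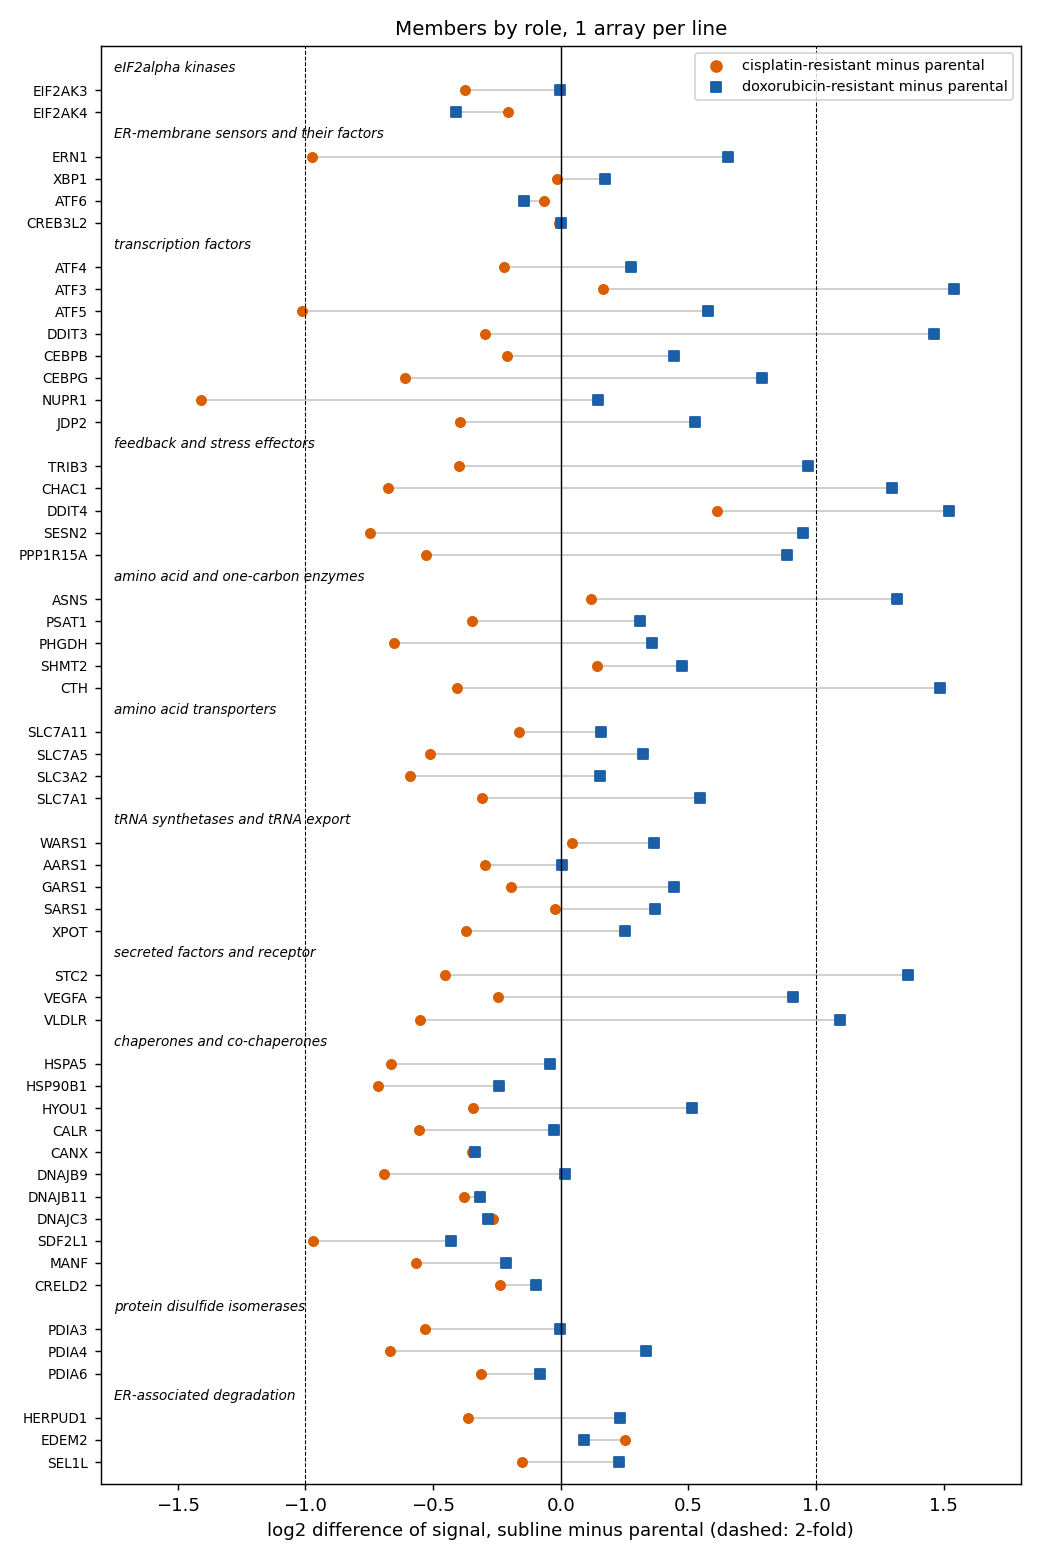
Log2 difference of signal from the parental array (x axis) for the 53 compared members, grouped by role, with circles for the cisplatin-resistant and squares for the doxorubicin-resistant array, 1 array per line and dashed lines at 2-fold. In the ATF4 and amino acid arm all 30 squares lie right of 0, whereas in the ER chaperone arm the squares lie between -0.43 and 0.51.

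Among the sensors, only ERN1 passed 1.5-fold in the probe sets that stand for the genes. ERN1, the IRE1 kinase and endonuclease, had a signal of 1283 in DoxR and 814 in parental cells, 1.58-fold higher, and its other probe sets differed by 1.09 and 0.18 on the log2 scale. PERK (EIF2AK3) had 1007 in DoxR and 1010 in parental cells, and GCN2 (EIF2AK4) had 518 in DoxR and 688 in parental cells. The sensor ATF6 had 833 against 920 in parental, XBP1 2675 against 2372, and the ER-bound factor CREB3L2 2041 against 2040. Thus the mRNA of PERK, ATF6 and CREB3L2 differed by at most 0.14 on the log2 scale in these probe sets. The other ATF6 probe sets showed -0.21, -0.46 and -0.35. GCN2 had both signs, at -0.41 in the probe set chosen and 0.25 in the other.

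The mRNA of ATF4 itself lay below the median difference of its arm. Its signal was 16556 in DoxR and 13667 in parental cells, 1.21-fold higher. ATF4 is regulated largely through translation, which an mRNA array does not measure. DDIT3, which encodes the pro-apoptotic factor CHOP, had 5136 in DoxR and 1867 in parental cells, 2.75-fold higher. ATF3, a stress-induced bZIP factor, had 1379 in DoxR and 475 in parental cells, 2.91-fold higher, and its other compared probe set showed 0.46 on the log2 scale. The C/EBP partners of ATF4 were higher by less, CEBPG by 1.72-fold (2880 against 1670 in parental) and CEBPB by 1.36-fold (18222 against 13413 in parental). The remaining factors were ATF5 at 1.49-fold, the ATF3 relative JDP2 at 1.44-fold and NUPR1, a stress-induced chromatin protein, at 1.11-fold.

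All 5 feedback and stress effectors passed 1.5-fold in DoxR cells. DDIT4, an mTORC1 inhibitor also known as REDD1, had 14678 in DoxR and 5118 in parental cells, 2.87-fold higher. CHAC1, which degrades glutathione, had 795 in DoxR and 324 in parental cells, 2.46-fold higher. TRIB3, a pseudokinase that restrains ATF4, had 18127 in DoxR and 9269 in parental cells, 1.96-fold higher. These values put TRIB3 just under the 2-fold rule, and its other probe set was just over it at 1.01 on the log2 scale. SESN2, a leucine sensor, was 1.93-fold higher (1004 against 520 in parental), and PPP1R15A, the GADD34 subunit that reverses eIF2alpha phosphorylation, was 1.85-fold higher (1446 against 781 in parental). The second SESN2 probe set showed 1.70 on the log2 scale.

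Within amino acid metabolism the difference was uneven. ASNS, asparagine synthetase, had 14950 in DoxR and 6001 in parental cells, 2.49-fold higher. CTH, the cystathionine lyase that makes cysteine, had 2024 in DoxR and 723 in parental cells, 2.80-fold higher, and 1.30 on the log2 scale by its second probe set. The serine synthesis enzymes PHGDH and PSAT1 were 1.28-fold and 1.24-fold higher, and SHMT2, the mitochondrial serine hydroxymethyltransferase, 1.39-fold. Enzymes for asparagine and cysteine therefore had larger differences than those for serine and glycine in these arrays.

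Transport and tRNA charging genes were higher by less than 1.5-fold in the probe sets that stand for them. The cystine carrier SLC7A11 was 1.11-fold higher, its partner chain SLC3A2 1.11-fold, the leucine carrier SLC7A5 1.25-fold and the arginine carrier SLC7A1 1.46-fold. Of the tRNA synthetases, GARS1 was 1.36-fold, WARS1 1.29-fold and SARS1 1.29-fold higher, while AARS1 had 6887 in DoxR and 6855 in parental cells. The tRNA exporter XPOT was 1.19-fold higher, and 1.51-fold by its second probe set. A second SARS1 probe set, with 808 in DoxR and 393 in parental cells, showed 1.04 on the log2 scale.

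The secreted factors and the lipoprotein receptor of the arm were all past 1.5-fold. STC2, the calcium-related hormone stanniocalcin, had 954 in DoxR and 371 in parental cells, 2.57-fold higher. VLDLR, a receptor for apolipoprotein E-rich particles, had 745 in DoxR and 349 in parental cells, 2.13-fold higher. VEGFA, the angiogenic growth factor, had 4526 in DoxR and 2407 in parental cells, 1.88-fold higher, and its 4 probe sets ranged from 0.37 to 0.91 on the log2 scale. All 3 genes were above parental in every compared probe set.

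**Figure D2:**
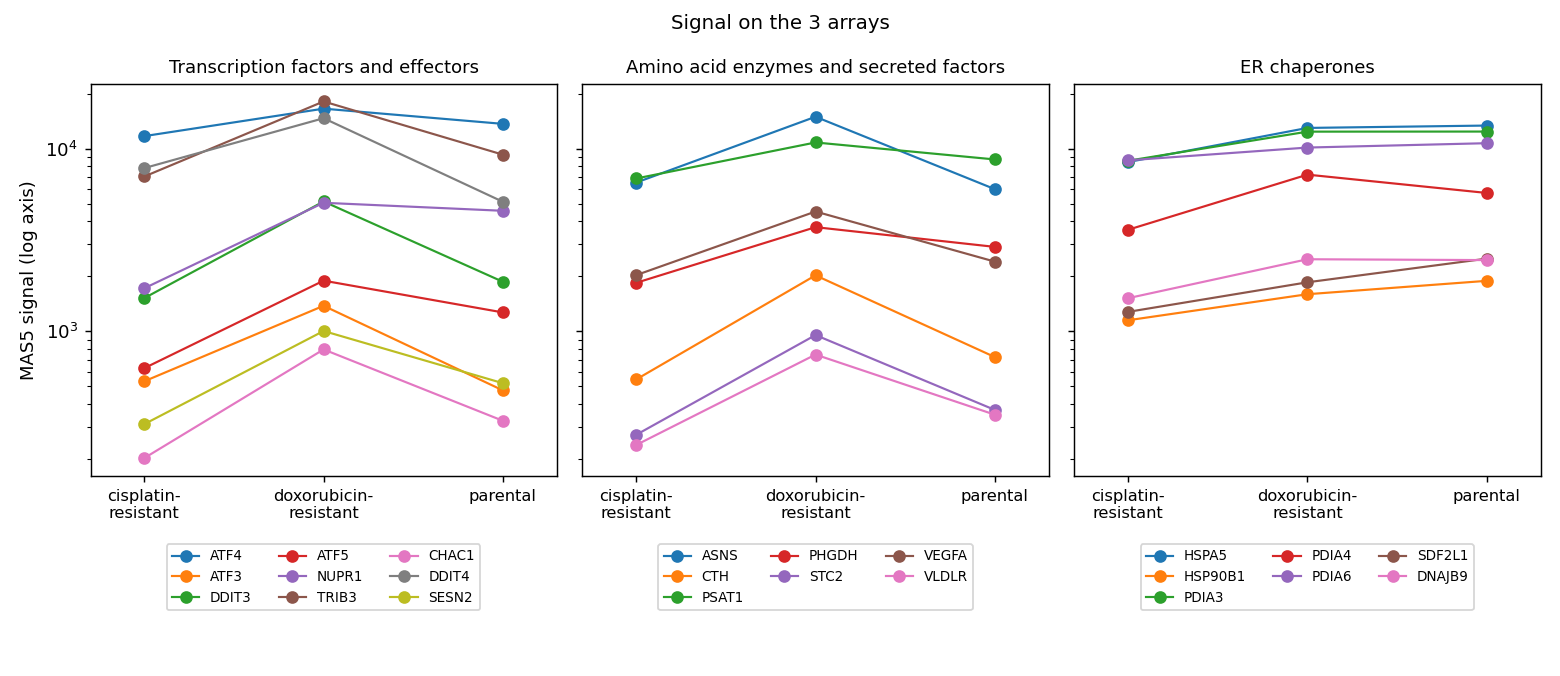
MAS5 signal (log axis) of selected members on the cisplatin-resistant, doxorubicin-resistant and parental arrays, in that order, with a line joining the values of one probe set and no order implied between the sublines. DDIT3 peaks at 5136 in the doxorubicin-resistant array, against 1520 in the cisplatin-resistant and 1867 in the parental array, while HSPA5 is at 8447 (cisplatin-resistant), 12984 (doxorubicin-resistant) and 13378 (parental).

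The chaperones named in the ER arm did not share this difference. HSPA5, the master chaperone BiP, had 12984 in DoxR and 13378 in parental cells, a log2 difference of -0.04. PDIA3, an oxidoreductase for glycoproteins, had 12390 in DoxR and 12404 in parental cells. DNAJB9, a BiP co-chaperone and XBP1 target, had 2480 in DoxR and 2453 in parental cells. In these probe sets the 3 genes were level within 0.04 on the log2 scale. Their other probe sets showed -0.25 for HSPA5, -0.18 and -0.06 for PDIA3, and -0.06 and 0.42 for DNAJB9. HSP90B1, the ER Hsp90, had 1596 in DoxR and 1889 in parental cells, and SDF2L1, a BiP co-factor, had 1855 against 2499 in parental, 1.35-fold lower. The lectin chaperones differed by -0.03 for CALR, whose other probe sets showed -0.33 and 0.14, and by -0.34 for CANX on the log2 scale. The 4 compared CANX probe sets ranged from -0.69 to -0.34. PDIA6 differed by -0.08 (10139 against 10711 in parental) and the secreted ER protein MANF by -0.21. DNAJB11, DNAJC3 and CRELD2 differed by -0.31, -0.29 and -0.10. The higher ones were HYOU1, at 5061 against 3548 in parental, 1.43-fold, and PDIA4, at 7206 against 5720 in parental, 1.26-fold. The second PDIA4 probe set was 1.42-fold higher. In the degradation group HERPUD1 differed by 0.23, SEL1L by 0.23 and EDEM2 by 0.09, and the SEL1L probe sets had both signs.

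The second comparison asked the same of the cisplatin-resistant subline. Here both arms had lower signals than in the parental array, by modest amounts. The ATF4 arm had a median log2 difference of -0.36 over 30 genes and a range of -1.41 to 0.61, and the chaperone arm a median of -0.38 over 17 genes and a range of -0.97 to 0.25. The median over all 12699 genes compared was 0.02. Of the 53 members, 47 (88.7%) lay below the parental value, against 47.9% of all genes compared. The 6 above it were DDIT4, EDEM2, ATF3, SHMT2, ASNS and WARS1.

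At 2-fold few members were called in CisR cells, and more were at 1.5-fold. Only NUPR1 and ATF5 were at least 2-fold lower, against 2.58% of all genes compared, and 0 members were at least 2-fold higher, against 2.82%. At 1.5-fold, 13 members (24.5%) were lower, against 8.26% of all genes, and DDIT4 alone was higher, against 9.29%. Of the 13, 7 belonged to the ATF4 arm, 5 to the chaperone arm and 1, ERN1, to the sensors.

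NUPR1 had the largest difference of the members in this comparison, at 1720 in CisR and 4568 in parental cells, 2.65-fold lower by its single probe set. ATF5, which ATF4 and CHOP induce and which acts on mitochondrial stress genes, had 628 in CisR and 1268 in parental cells, 2.02-fold lower. ERN1 had 414 in CisR and 814 in parental cells, 1.97-fold lower, but its 2 weaker probe sets showed -0.25 and 0.37 on the log2 scale. So the ERN1 direction rested on the probe sets chosen, whereas the second compared ATF5 probe set was lower too, at -0.86. ATF5 no longer passed 2-fold with the median over its probe sets (-0.94) or with its neighbours subtracted (-0.80). CEBPG was 1.53-fold lower in both of its probe sets, SESN2 1.68-fold (310 against 520 in parental) and CHAC1 1.60-fold (202 against 324 in parental). The second SESN2 probe set was 1.38-fold lower. PHGDH was 1.57-fold lower at 1843 in CisR and 2898 in parental cells, and SLC3A2 was 1.51-fold lower at 2255 against 3398 in parental.

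DDIT4 was the member past 1.5-fold in the other direction, with 7826 in CisR and 5118 in parental cells, 1.53-fold higher. ATF4 had 11711 in CisR and 13667 in parental cells, 1.17-fold lower. DDIT3 was 1.23-fold lower at 1520 against 1867 in parental, and ATF3 was 1.12-fold higher at 533 against 475 in parental, with a second probe set at -0.44 on the log2 scale. ASNS had 6521 in CisR and 6001 in parental cells, a log2 difference of 0.12. ATF4, DDIT3, ATF3 and ASNS thus lay within 1.5-fold of the parental level. CTH, STC2, VLDLR and VEGFA differed by -0.41, -0.45, -0.55 and -0.25, and TRIB3 and PPP1R15A by -0.40 and -0.53. The second probe sets of STC2, TRIB3 and PPP1R15A were past 1.5-fold lower, at -0.78, -0.81 and -0.97. That of CTH showed -0.33, and the 4 VEGFA probe sets ranged from -0.43 to -0.20.

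Apart from ERN1, the sensors lay closer to the parental level in the probe sets that stand for them. PERK had 778 in CisR and 1010 in parental cells, 1.30-fold lower, and GCN2 had 596 against 688 in parental. ATF6 had 879 against 920 in parental, XBP1 2348 against 2372 and CREB3L2 2030 against 2040. These last 3 were within 0.07 on the log2 scale in those probe sets. The other ATF6 probe sets showed 0.54, 0.05 and 0.11, and the other GCN2 probe set 0.53, so neither gene has a settled direction here.

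Most ER chaperones were lower in CisR cells, each by less than 2-fold. SDF2L1 had 1278 in CisR and 2499 in parental cells, 1.96-fold lower. HSP90B1 was 1.64-fold lower at 1149 against 1889 in parental, and HSPA5 was 1.58-fold lower at 8447 against 13378 in parental. The other probe sets of HSP90B1 and HSPA5 were 1.39-fold and 1.36-fold lower, and both HSP90B1 probe sets are marked _x_. DNAJB9 was 1.62-fold lower at 1518 against 2453 in parental, and PDIA4 was 1.59-fold lower at 3598 against 5720 in parental. Those 5 genes were the chaperone arm members past 1.5-fold in the probe sets that stand for them. PDIA3 (8587 against 12404 in parental) and CALR (3183 against 4671 in parental) were 1.44-fold and 1.47-fold lower, MANF 1.48-fold, PDIA6 1.24-fold (8630 against 10711 in parental) and CANX 1.27-fold. Another CANX probe set was 1.68-fold lower, at 4865 in CisR and 8194 in parental cells. The co-chaperones DNAJB11 and DNAJC3 and the ER protein CRELD2 differed by -0.38, -0.27 and -0.24 on the log2 scale. Of the 17 chaperone arm genes, EDEM2, a mannosidase-like protein of glycoprotein degradation, was the one above parental, at 1619 in CisR and 1360 in parental cells.

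**Figure D3:**
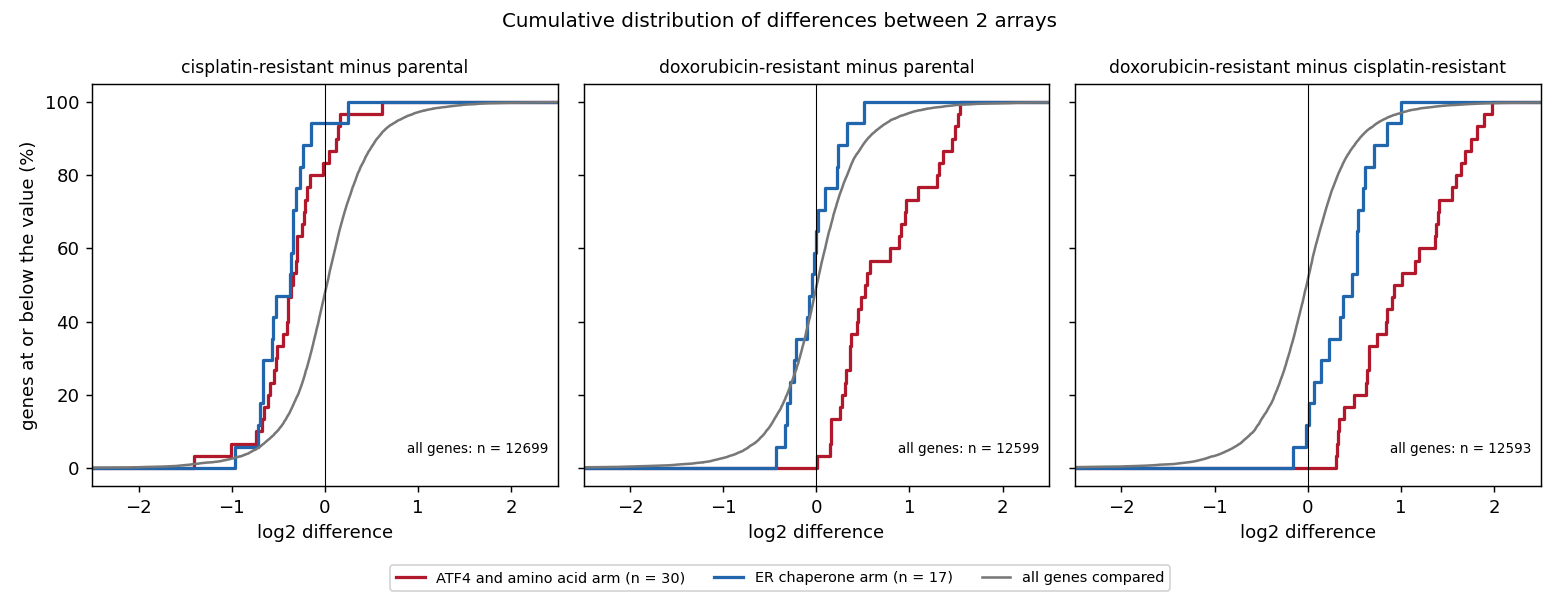
Share of genes (y axis, percent) with a log2 difference at or below the value on the x axis, for the 30 compared genes of the ATF4 and amino acid arm, the 17 of the ER chaperone arm and all genes compared, in 3 comparisons of 1 array with 1 array. Against parental, both arms lie left of all genes in the cisplatin-resistant array (medians -0.36 and -0.38), and only the ATF4 arm lies right of them in the doxorubicin-resistant array (median 0.54 against -0.04 for the chaperone arm).

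The sublines were also set against each other, a comparison that uses no further array and adds no independent measurement. Both comparisons above share the parental array, so their values stand side by side and were not correlated. In DoxR cells 17 members were at least 2-fold higher than in CisR cells, against 3.05% of all genes compared, and 0 were at least 2-fold lower, against 3.32%. The ATF4 arm gave 15 of the 17, and the other members at 2-fold were ERN1 at 3.10-fold and PDIA4 at 2.00-fold. PDIA4 lay at the threshold, and with the median of its neighbours (0.78) subtracted its log2 difference was 0.22. At 1.5-fold, 30 members were higher and 0 lower, against 9.16% and 9.91% of all genes, and 24 of the 30 belonged to the ATF4 arm. That arm's median log2 difference was 0.97, with a range of 0.30 to 1.98. Its signal was higher for 30 of 30 genes, against 48.7% of all genes. The chaperone arm had a median of 0.47, and the median of all 12593 genes was -0.01. CHAC1 had the largest difference, 3.93-fold (795 in DoxR and 202 in CisR cells), followed by CTH at 3.71-fold, STC2 at 3.52-fold and DDIT3 at 3.38-fold.

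Agreement in direction between the probe sets of a gene differed by arm. In DoxR cells all compared probe sets were above parental for 16 of 17 such genes of the ATF4 arm (94.1%), against 27.1% of all 6268 genes with several probe sets, the exception being SLC7A1. In CisR cells all were below parental for 10 of 10 such chaperone arm genes, against 27.9% of all 6328 genes, and for 13 of 17 ATF4 arm genes. The 4 ATF4 arm genes with both signs there were ATF3, SHMT2, SLC7A11 and WARS1. In DoxR cells 6 of the 10 chaperone arm genes were lower and 1 higher in all their probe sets. The shares over all genes were 29.8% lower and 27.1% higher, and CALR, DNAJB9 and SEL1L had both signs. None of the 5 sensors and signalling genes with several probe sets kept a single direction in CisR cells, against 57.0% of all genes. Probe sets of a gene share the array and the RNA, so they check the probe sets and not the culture.

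**Figure D4:**
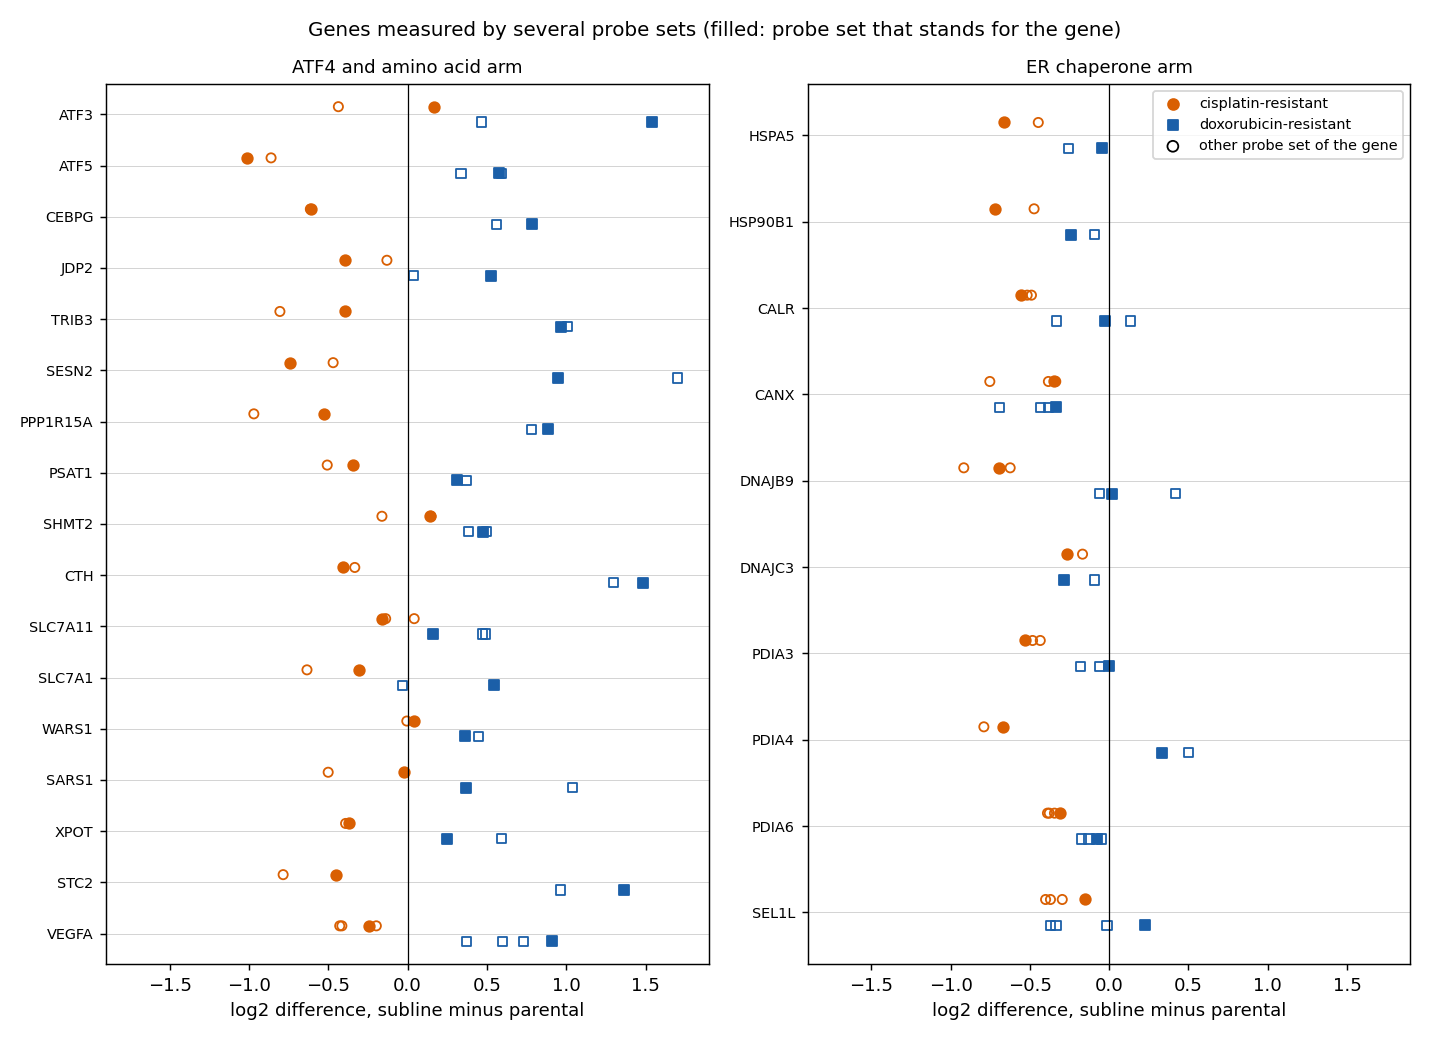
Log2 difference from parental (x axis) for each compared probe set of members of both arms that have several, with circles for the cisplatin-resistant and squares for the doxorubicin-resistant array, filled for the probe set that stands for the gene. Squares of 16 of the 17 ATF4 arm genes lie wholly right of 0, and circles of all 10 chaperone arm genes lie wholly left of it.

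The promoter motif did not separate the ATF4 arm by size of difference. In DoxR cells the 9 compared genes with a TGATGNAAN match had a median log2 difference of 0.55 and the 17 without one a median of 0.58. In CisR cells the medians were -0.31 with a match and -0.40 without. In the chaperone arm, the 6 genes with the first ER stress motif had medians of -0.09 in DoxR and -0.45 in CisR cells, against 0.05 in DoxR and -0.37 in CisR cells for the 10 without it. The 3 genes with the second form had medians of 0.23 in DoxR and -0.36 in CisR cells, against -0.08 in DoxR and -0.38 in CisR cells for the 13 without it.

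Chromosomal neighbours were checked because long runs of genes differ between these lines. The median log2 difference of the 7 compared genes on each side was 0.23 around ASNS on chromosome 7 in DoxR cells, against 1.32 for ASNS itself. It was 0.20 around DDIT3, -0.35 around ATF3, 0.14 around DDIT4 and 0.06 around CTH. The neighbours of PDIA4 and DNAJB9, both on chromosome 7, had medians of 0.44 and 0.40 in that array, above the genes' own 0.33 and 0.02. With the neighbours' median subtracted, the ATF4 and chaperone arms had medians of 0.56 and -0.11 in DoxR cells and -0.41 and -0.50 in CisR cells.

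Other genes of the pathway were then examined from wider lists. Of 33 further ATF4 and amino acid response genes compared in DoxR cells, 4 (12.1%) were at least 2-fold higher and 0 lower, against 2.99% and 2.75% of all genes, with a median log2 difference of 0.19. At 1.5-fold, 7 (21.2%) were higher and 2 (6.06%) lower, against 9.1% and 8.62% of all genes. Unlike the listed arm, this list had both directions, with 25 genes (75.8%) above parental and 8 (24.2%) below. Over all genes compared the shares were 50.4% above and 49.6% below. GDF15, a secreted stress hormone, had 8742 in DoxR and 2667 in parental cells, 3.28-fold higher, though its other compared probe set showed 0.33 on the log2 scale. ALDH1L2, the mitochondrial formyltetrahydrofolate dehydrogenase, had 252 against 82.3 in parental, 3.07-fold higher from a level close to the floor. CCPG1, an ER-phagy receptor, and PCK2, the mitochondrial form of PEP carboxykinase, were 2.14-fold and 2.11-fold higher. In CisR cells 34 genes of this list had a median of -0.14, with 1 higher and 1 lower (2.94% each), near the 2.82% and 2.58% of all genes. These were the folate enzyme SHMT1 at 2.98-fold higher and the cystine transporter chain SLC3A1 at 3.09-fold lower. Between the sublines GDF15 was 5.83-fold higher in DoxR than in CisR cells (8742 against 1501), but its other compared probe set showed 0.48 on the log2 scale. SLC3A1 was 2.70-fold and the leucine transporter SLC43A1 2.45-fold higher in DoxR than in CisR cells, and SHMT1 2.89-fold lower.

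The wider ER list of 46 compared genes had medians of -0.07 in DoxR and -0.05 in CisR cells. In DoxR cells 0 were at least 2-fold higher and 2 lower (4.35%, against 2.75% of all genes), the degradation lectin EDEM1 at 2.39-fold and the factor CREB3L1 at 2.10-fold, and the neighbours of EDEM1 on chromosome 3 had a median of -1.12. None of the 46 was called at 2-fold in CisR cells, against 2.82% higher and 2.58% lower of all genes. The listed chaperone arm had none called at 2-fold there either, so this count does not separate the lists. At 1.5-fold in CisR cells, 4 of the 46 (8.70%) were lower, against 8.26% of all genes, and 2 (4.35%) higher, against 9.29%. In the listed chaperone arm 5 of 17 (29.4%) were lower and 0 higher. By these counts and the median of -0.05, against -0.38 for the listed arm, the wider ER list did not share the lower signal. Cytosolic heat shock genes had medians of -0.07 in both resistant arrays over 7 genes, with none past 1.5-fold, and the other eIF2alpha kinases, phosphatase and eIF2B subunits had medians of -0.05 in DoxR and -0.01 in CisR cells over 9 genes.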

How the data were processed

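The deposited values were linear intensities from Affymetrix scans, 1 array per line, summarised by the authors with MAS5 (per the submitters' processing notes, which name no version). The mean signal came to 500.1 on every array once 2% of probe sets were dropped at each end. Of 54675 probe sets, 41097 had a single gene symbol in the platform annotation, updated by Entrez identifier to RefSeq GRCh38.p14 (41043 matched). The 1801 with several symbols were named for no gene. The probe set brightest on average stood for its gene. Signals under the floor (76.9, the median of all pooled values) were raised to it before taking log2, and genes with neither value above it were not compared. Precision is limited by having 1 array per group. Calls were made at 2-fold and 1.5-fold, without p-values, in Python 3.11.15 with pandas 2.3.3, and the code was tested on simulated arrays. The members and lists were chosen with earlier results of these data known. Full values are given for members past 1.5-fold against parental, the sensors, ATF4 and the main chaperones, and for up to 4 genes past 2-fold from each wider list. Alternatives changed the floor, the probe set, the scaling and the treatment of neighbouring genes.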

Additional observations from a re-analysis of the deposited data

How the results depend on the processing

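No paired analysis was possible because each line has 1 array. Over the 8 alternatives no called difference changed sign. The choice of probe set moved the counts most: without probe sets whose ID carries _s_ or _x_, which may match several transcripts, only 37 members could be compared, so fewer could be called. There, 4 members were higher at 2-fold (2.93% of all genes) and 8 at 1.5-fold (9.37%) for DoxR against parental. DoxR against CisR had 10 (3.04%) and 18 (9.52%). CisR against parental had 0 lower at 2-fold (2.72%), 8 lower at 1.5-fold (8.96%) and 0 higher at 1.5-fold (9.46%). The chaperone arm's median for DoxR against CisR was 0.35 there and 0.37 with the median over probe sets. CisR against parental had 1 member at least 2-fold lower with the median over probe sets, where ATF5 was at -0.94, and 1 with neighbouring genes subtracted, where ATF5 was at -0.80 and the chaperone arm's median was -0.50. With the floor at the 25th percentile, DoxR against parental had 1 member at least 1.5-fold lower, against 15.1% of all genes. Singly, ATF3 was at 0.46 in DoxR against parental without those probe sets, VLDLR at 0.95 with neighbours subtracted, and CHAC1 and VLDLR at 0.86 and 0.76 with the floor at the 75th percentile, which raises their parental values. PDIA4 was at 0.22 for DoxR against CisR with neighbours subtracted. Low signals limit the members near the floor, and a single array gives no error for any value.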
